A study of Mus musculus with 6 samples.

Results

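The small nucleolar RNAs (snoRNAs), the small Cajal body RNAs (scaRNAs) and the small nucleolar RNA host genes (Snhg) of mouse ETX-embryos are described here. They were chosen by name, as the entries beginning with Snora, Snord, Scarna or Snhg that are not fused with the name of another gene. This gave 33 of the 12826 entries in the deposited table: 16 Snora, 8 Snord, 2 Scarna and 7 Snhg entries. A further 3 entries begin with Snhg but carry a second gene name (Snhg1Snord22, Snhg7Snora43 and Snhg12Snord99) and were left out of all counts of members.

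ETX-embryos are embryo-like structures that form in culture when mouse embryonic stem cells, trophoblast stem cells and extraembryonic endoderm stem cells aggregate. The data are 6 low-input RNA-seq libraries made with Smart-seq2, made from 2 pieces of each of 3 structures named A, B and C, and 3 values in a row always follow that order of structures. All structures carried a T/Brachyury-GFP reporter and none received a treatment. The trophoblast stem cell compartment had been removed, and the remaining compartment was cut along its length into a GFP-negative piece, labelled anterior, and a GFP-positive piece, labelled posterior. The genotype beyond the reporter and the number of cells in a piece are not given in the labels. Each piece can hold several cell types, so fewer cells of a type and less RNA per cell cannot be told apart.

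SnoRNAs are short nucleolar RNAs that guide chemical modification of ribosomal RNA. The H/ACA kind (Snora) directs the isomerisation of uridine to pseudouridine and the C/D kind (Snord) directs methylation of the ribose, while scaRNAs do the same work on spliceosomal RNAs in Cajal bodies. Most mammalian snoRNAs are not transcribed from promoters of their own: they are cut out of introns of a host gene, which may code for a ribosomal protein or, as with Snhg genes, be spliced into a long RNA whose exons code for no known protein. Smart-seq2 starts cDNA synthesis from the poly(A) tail, which host transcripts have and mature snoRNAs lack, so which molecules gave the fragments counted over a snoRNA was not tested.

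The sequences of 7 entries on which the results turn were taken from the GENCODE M21 transcripts (build GRCm38) and written 5′ to 3′. In the H/ACA RNAs the capitals mark the ACA trinucleotide found within the last 10 bases, which gives the class its name. In the C/D RNA they mark TGATGA, the core of box C, within the first 25 bases and CTGA, box D, within the last 20. Snora17 (chr2:26639190-26639321, minus strand) and Snord17 (chr2:144265979-144266216, minus strand) are the pair listed at 0 in every anterior and above 0 in every posterior library. Snora70 (chrX:74272484-74272620, plus strand), Snora33 (chr10:23785347-23785475, minus strand), Snora41 (chr1:63179004-63179135, plus strand) and Snora31 (chr14:75847905-75848034, plus strand) are H/ACA RNAs above 0 in 4 or 5 libraries. Scarna13 (chr12:105031075-105031349, minus strand), of the H/ACA kind, was above 0 in the posterior pieces of A and B only.
Snora17: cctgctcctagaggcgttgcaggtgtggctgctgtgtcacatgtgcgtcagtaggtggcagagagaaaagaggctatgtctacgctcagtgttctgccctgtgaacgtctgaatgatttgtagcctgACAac
Snord17: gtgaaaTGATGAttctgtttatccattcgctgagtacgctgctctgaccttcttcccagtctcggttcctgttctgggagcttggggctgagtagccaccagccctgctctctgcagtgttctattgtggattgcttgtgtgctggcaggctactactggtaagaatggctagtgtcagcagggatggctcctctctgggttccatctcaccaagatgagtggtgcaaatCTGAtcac
Snora70: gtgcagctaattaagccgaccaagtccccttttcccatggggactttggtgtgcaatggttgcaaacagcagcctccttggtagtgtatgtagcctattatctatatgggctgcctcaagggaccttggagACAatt
Snora33: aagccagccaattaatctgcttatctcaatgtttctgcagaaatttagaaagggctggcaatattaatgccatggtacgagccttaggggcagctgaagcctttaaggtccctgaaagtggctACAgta
Snora41: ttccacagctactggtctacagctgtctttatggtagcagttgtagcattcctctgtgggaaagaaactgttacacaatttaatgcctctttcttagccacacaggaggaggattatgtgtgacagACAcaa
Snora31: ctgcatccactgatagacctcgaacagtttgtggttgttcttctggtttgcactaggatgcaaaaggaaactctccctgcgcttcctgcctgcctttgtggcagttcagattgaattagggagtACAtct
Scarna13: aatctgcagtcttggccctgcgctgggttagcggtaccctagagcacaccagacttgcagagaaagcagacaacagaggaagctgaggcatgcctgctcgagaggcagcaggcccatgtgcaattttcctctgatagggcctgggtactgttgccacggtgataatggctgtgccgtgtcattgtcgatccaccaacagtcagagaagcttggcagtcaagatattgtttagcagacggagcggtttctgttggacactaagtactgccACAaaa
The ACA was found at that place in 13 of the 15 Snora entries whose sequence was read and in 95.2% of the 42 Snora genes of GENCODE M21. Of the 8 Snord entries, 8 held CTGA and 6 held TGATGA in these windows, against 97.5% and 65.4% of 81 Snord genes. Only the transcribed strand was searched, and a match is a description of the letters.

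SnoRNA genes are often copied, and reads from identical copies cannot be assigned to one locus. Of the 26 snoRNA and scaRNA entries, 9 shared an identical stretch of at least 31 bases with another gene of GENCODE M21 that does not overlap them. Snora17 shared one with 12 other snoRNA genes, Snora70 with 3, Snora33 with 1 and Snora41 with 1. None of these other genes is an entry of the deposited table, and no source used here says how reads that fit several loci were treated. Snord17, Snora31, Snord35b and Scarna13 shared no such stretch.

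The values are log2(FPKM + 1), where FPKM is a fragment count divided by gene length and library size, and a level below always means this log2 value. Absolute depth is unknown. The relative depth, read from the regular spacing of the lowest FPKM values and set to 1.0 in anterior A, was 1.41 in anterior B and 1.43 in anterior C, against 2.20, 2.82 and 1.56 in the posterior pieces. By these depths the posterior library was the deeper one in each embryo. Of 15 pairs of libraries compared directly, 12 matched these depths and 3 were off by a whole doubling. Anterior B and posterior B were such a pair, with a log2 ratio of 0.002 where the depths give 1.002. Which library of embryo B was deeper is therefore uncertain. The share of all entries above 0 was 77.7%, 86.4% and 72.8% in the anterior pieces and 93.7%, 94.7% and 80.0% in the posterior pieces. T, the reporter gene, had log2 levels of 0, 0 and 5.44 in the anterior pieces and 2.59, 4.05 and 0 in the posterior pieces, which goes against the labels of embryo C. Of 8 primitive streak markers, 0, 2 and 4 were above 0 in the anterior pieces and 8, 8 and 7 in the posterior pieces. Of 8 epiblast markers, 5, 6 and 7 were above 0 against 8, 8 and 8, with mean levels of 1.17, 2.25 and 3.73 against 5.32, 4.18 and 4.71. Of 12 visceral endoderm markers, 11, 11 and 3 were above 0 in the anterior pieces, against 10, 12 and 8 in the posterior ones, with mean levels of 3.70, 4.34 and 0.63 against 2.55, 3.37 and 2.39. Of 7 trophoblast markers, 5, 3 and 5 against 6, 7 and 5 were above 0, with mean levels from 1.26 to 1.97. The part of depth and of these cell types in the results below was not tested.

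SnoRNA and scaRNA entries were more often listed at 0 in the anterior than in the posterior pieces, while the Snhg host genes were listed above 0 nearly throughout. Of the 26 snoRNA and scaRNA entries, 4, 9 and 4 were above 0 in the anterior pieces, and 18, 21 and 8 in the posterior pieces. Summed over libraries, 17 of 78 anterior values and 47 of 78 posterior values were above 0. However, 17 of the 26 entries were at 0 in every anterior library, where 2.47% of all genes tested were. These 17 have values above 0 in the posterior domain alone, so the sums describe the entries and support nothing further. Of the 7 Snhg entries, 7, 7 and 6 were above 0 in the anterior pieces and 7, 7 and 5 in the posterior pieces, or 20 and 19 of 21 values. An exact 0 says only that the entry was listed at 0. Of the 26 short entries, 11 were above 0 in 1 library, 5 in 2, 3 in 3, 3 in 4, 2 in 5 and 2 in all 6.

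The count of short entries above 0 was set beside depth. By the depths used, posterior A and B were the deepest libraries and held the most, and anterior A, the shallowest, held 4. By those depths, 3 libraries were near-equal, at 1.41, 1.43 and 1.56. They held 9 in anterior B, 4 in anterior C and 8 in posterior C, so the posterior library lay between the anterior ones. Compared directly, anterior B and posterior B were also near-equal (log2 ratio 0.002), and they held 9 and 21. The order of depth in embryo B is uncertain, and the part of depth in these counts was not tested. The anterior libraries had 36.8% of the summed relative depth. MicroRNA genes, which are also short, had a shallower gradient: 37.0%, 39.1% and 28.3% of 46 such entries were above 0 in the anterior pieces and 52.2%, 63.0% and 32.6% in the posterior pieces.

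**Figure D1:**
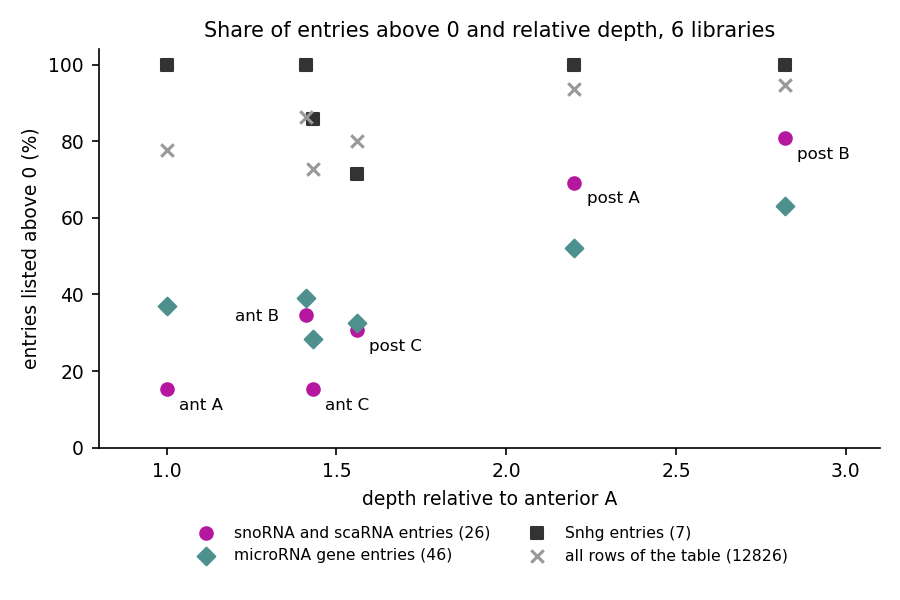
Percent of entries listed above 0 (vertical axis) against depth relative to anterior A (horizontal axis), 1 point per library and class: snoRNA and scaRNA entries (circles, labelled by library), microRNA genes (diamonds), Snhg entries (squares) and all rows (crosses). The snoRNA and scaRNA share runs from 15.4% in anterior A and C to 80.8% in posterior B, and the Snhg share is 100% in 4 libraries.

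Snora17 and Snord17 were the members with the smallest p-values for a difference between domains. Snora17, an H/ACA RNA, was listed at 0 in the 3 anterior pieces and had levels of 5.31, 7.73 and 9.35 in the posterior pieces. The posterior minus anterior difference was 7.46 ± 1.01 (SE) on the log2(FPKM + 1) scale, with an unadjusted p of 3.12e-05 and an adjusted p of 0.211 in limma's moderated test. Snord17, a C/D RNA, was listed at 0 in the same anterior libraries and had levels of 5.71, 5.76 and 7.77 in the posterior pieces. Its difference was 6.41 ± 0.96 (SE), with limma's unadjusted p at 7.08e-05 and adjusted p at 0.257. The domains did not overlap for either entry. In both the highest level was in posterior C, the shallowest of the posterior libraries by the depths used. Against a group listed at 0, such a difference depends on the 1 FPKM added before the logarithm and is not a fold change. It was 10.77 for Snora17 with 0.1 FPKM added and 4.27 with 10 FPKM, and 9.72 and 3.26 for Snord17. Over all genes tested, 1.03% were at 0 in the 3 anterior and above 0 in the 3 posterior pieces and 0.0458% had the opposite pattern, and 2 and 0 members did so.

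**Figure D2:**
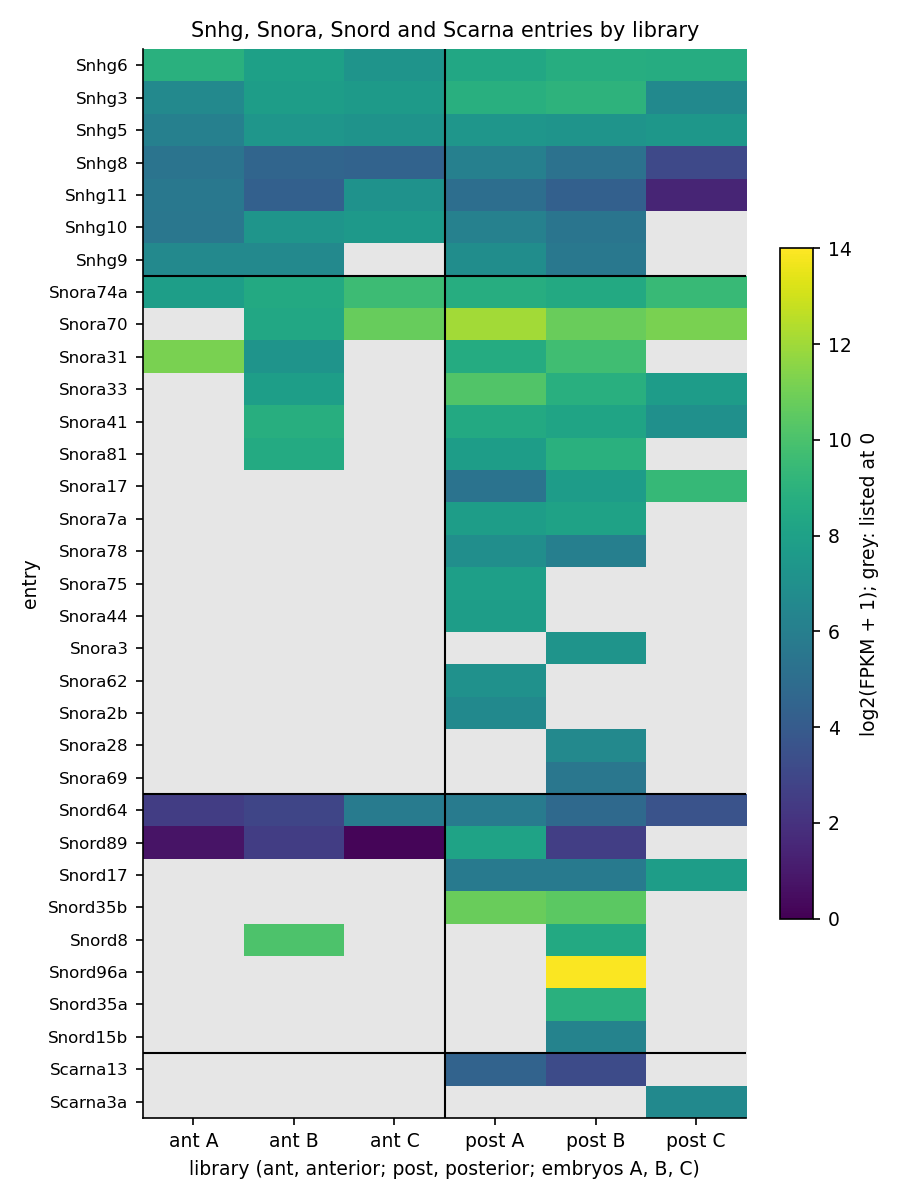
Level of each member in log2(FPKM + 1) (colour), with entries in rows and the 3 anterior and 3 posterior libraries in columns. Grey cells are listed at 0. Black lines separate Snhg, Snora, Snord and Scarna entries and the domains. Snora17 and Snord17 are grey in all anterior and coloured in all posterior columns, and the Snhg rows are grey in only 3 cells.

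Of the remaining H/ACA RNAs above 0 in at least 4 libraries, Snora70, Snora33 and Snora41 lie in genes of the translation machinery, Snora74a in an Snhg gene and Snora31 in Tpt1. Snora70, which lies in the ribosomal protein gene Rpl10 and overlaps an exon of some of its transcripts, had the highest mean level of the class, at 0, 8.41 and 10.77 in the anterior pieces and 12.05, 10.81 and 11.19 in the posterior pieces. Its 3 posterior values lay above all anterior ones, and in posterior A it ranked 8th of 12826 entries. Snora74a, which lies in Snhg4, was above 0 throughout, at 7.83, 8.50 and 9.60 against 8.74, 8.48 and 9.43, and its domains overlapped. Snora33, in the ribosomal protein gene Rps12, was at 0, 7.86 and 0 in the anterior pieces and 10.22, 8.86 and 7.72 in the posterior pieces. Snora41, in the elongation factor gene Eef1b2, was at 0, 8.75 and 0 against 8.53, 8.17 and 7.03. For both, anterior B was the one anterior library above 0. Its Snora33 level lay above that of posterior C, and its Snora41 level lay above all posterior ones.

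Snora31 did not follow the domains. This H/ACA RNA, in the gene Tpt1, which encodes a translationally controlled protein, was at 11.20, 7.25 and 0 in the anterior pieces and 8.61, 9.70 and 0 in the posterior pieces. Its highest level was in anterior A, the shallowest library, where it ranked 11th of all entries, and it was listed at 0 in both libraries of embryo C. Snora81, in the translation initiation factor gene Eif4a2, was at 0, 8.53 and 0 against 7.81, 8.87 and 0. Snora7a, in Rpl32, was at 7.78 and 8.09 in the posterior pieces of A and B and listed at 0 elsewhere, and Snora78, in Snhg9, at 6.90 and 6.06 in the same libraries.

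The other 7 H/ACA entries were each above 0 in 1 posterior library. In posterior A these were Snora75 (7.89), Snora44 (7.82), Snora62 (7.10) and Snora2b (6.62). In posterior B they were Snora3 (7.25), Snora28 (6.60) and Snora69 (5.55). Their host genes include Ncl for Snora75, which encodes the nucleolar protein nucleolin, and Rpsa, Rpl27a and Rpl39 for Snora62, Snora3 and Snora69. By the depths used, these entries were present where depth was highest, and none was above 0 in posterior C or in an anterior library.

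Among the C/D RNAs, Snord35b was at 10.81 and 10.45 in the posterior pieces of A and B and listed at 0 in the other 4 libraries. Its paralogue Snord35a was at 8.88 in posterior B only. The highest level of any member was 13.93, for Snord96a in posterior B, where it ranked 2nd of 12826 entries, and Snord96a was listed at 0 in the 5 other libraries. Its host gene Rack1, which encodes a ribosome-bound scaffold protein, had levels from 8.29 to 10.04 across all 6 libraries under its older symbol Gnb2l1. Snord15b, in Rps3, was at 6.26 in posterior B only. Snord8, in the chromatin remodeller gene Chd8, was at 10.07 in anterior B and 8.48 in posterior B and 0 in the other embryos, so it followed the embryo and not the domain.

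Snord64 and Snord89 were the C/D entries with low but widespread values. Snord64, of the imprinted Snrpn region, was above 0 in all 6 libraries, at 2.55, 2.93 and 5.83 in the anterior pieces and 5.83, 4.81 and 3.59 in the posterior pieces. SnrpnSnurf, the joined entry for the protein-coding genes upstream in that region, had levels of 2.44, 2.72 and 5.86 against 6.67, 4.86 and 4.66. Both were low in anterior A and B and high in anterior C and posterior A. Snord89 was at 0.73, 2.55 and 0.21 in the anterior pieces and 8.10, 2.61 and 0 in the posterior pieces, so its mean difference rested on posterior A. It was the one short entry with no RefSeq gene around it on the same strand.

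Of the scaRNAs, Scarna13, in Snhg10, was at 4.44 and 3.18 in the posterior pieces of A and B and 0 elsewhere. Scarna3a, in the ubiquitin ligase gene Cop1, was at 6.66 in posterior C only. Scarna13 is, at 275 bases in RefSeq, the longest of the 26 short entries, and it had the lowest levels among those above 0 in the posterior domain only.

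The Snhg host genes were present at moderate to high levels in both domains. Snhg6 had the highest mean, at 8.89, 7.97 and 7.23 in the anterior pieces and 8.38, 8.74 and 8.68 in the posterior pieces. Snhg3 was at 6.57, 7.81 and 7.63 against 8.81, 9.03 and 6.63, and Snhg5 at 6.10, 7.35 and 7.20 against 7.35, 7.26 and 7.43. Domains overlapped for all of these. Snhg8 was at 5.39, 4.58 and 4.48 against 6.10, 5.28 and 3.09, higher in the posterior library of embryos A and B and lower in that of C.

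The Snhg entries with the smallest p-values were higher in the anterior domain. Snhg10 was at 5.53, 7.30 and 7.59 in the anterior pieces and 6.15, 5.41 and 0 in the posterior pieces, a posterior minus anterior difference of -2.95 ± 1.32 (SE) with limma's unadjusted p at 0.0512 and adjusted p at 0.617. Without embryo C the difference was -0.63. Snhg11 was the one member higher in the anterior piece of 3 of 3 embryos, at 5.58, 4.32 and 7.16 against 5.04, 4.28 and 1.45. In embryo B those Snhg11 levels differ by 0.04, the difference of -2.10 became -0.29 without embryo C, and over all genes 8.25% had that order in 3 of 3 embryos. Snhg10 and Snhg11 passed limma's unadjusted p of 0.05 after quantile normalization (0.0162 and 0.0461), and their adjusted p was then 0.592 and 0.651. Snhg9 was at 6.61, 6.60 and 0 against 6.85, 5.61 and 0, listed at 0 in both libraries of embryo C as Snora31 was. That pattern, with the other 4 libraries above 0, held for 1.91% of all genes.

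No member passed an adjusted p of 0.05 for a difference between domains in limma, and 0% of the 10914 genes tested did. The lowest adjusted p of a member was 0.211. At an unadjusted p under 0.05 in that test, 9 members were higher in the posterior domain (6 Snora, 2 Snord and 1 Scarna), where 7.24% of all genes were, and 0 members were higher in the anterior domain, where 0.788% of all genes were. Without embryo A the 9 became 5 and without embryo B 4, and with no replicate block and without posterior A or without posterior B it was 3. All 33 members passed the filter of a mean of at least 1 FPKM. A short entry at 0 in the 3 anterior libraries passes through its posterior values alone, which may come from 1 library. The counts of direction therefore describe the entries and support nothing further.

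Most Snora, Snord and Scarna entries had the higher posterior mean, and 4 of the 7 Snhg entries did. Of the 26 short entries, 24 had a higher posterior mean, where 64.9% of all genes tested did, among them Snora74a, whose direction turned after quantile normalization. Their median difference was 2.57 on the log2(FPKM + 1) scale, and it was 5.51, 2.42 and 0.00 within embryos A, B and C. The median was 2.62 for Snora, 2.68 for Snord and 2.38 for Scarna, and the Snord value was 0.26 without embryo B. For the 7 Snhg entries it was 0.01, and -0.28 after quantile normalization. Over all genes tested the median was 0.43, and 0.91, 0.02 and 0.17 within embryos A, B and C. The posterior library was the higher one in 3 of 3 embryos for 4 members (Snora17, Snord17, Snora33 and Snora70), or 12.1% of 33, beside 21.5% of all genes. An entry at 0 in both pieces of an embryo cannot have that order. In 3 members, Snora17, Snord17 and Snora70, all posterior lay above all anterior libraries, against 12.3% of all genes. Of the 26 short entries, 17 were at 0 in the 3 anterior pieces, against 2.47% of all genes. At 0 in the 3 posterior pieces were 0 of the 26, against 0.577% of all genes. The 17 passed the filter through their posterior values alone, so that count describes the entries only.

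The snoRNA entries were then set beside the genes that contain them. A same-strand RefSeq gene surrounds 25 of the 26 short entries, and each of these hosts has an entry of its own, under an older symbol or joined with another gene. The host codes for a protein in 19 cases, 9 of them ribosomal proteins, and is an Snhg gene in 6: Snhg7 for Snora17, Snhg12 for Snora44, Snhg4 for Snora74a, Snhg9 for Snora78, Snhg10 for Scarna13 and Snhg14 for Snord64. In GENCODE M21, 11 short entries lie inside an intron and 12 overlap an exon of some transcript of the host, so fragments over them can belong to the spliced host RNA.

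Host genes were listed above 0 where their snoRNAs were not. Across 25 pairs and 6 libraries, the host was above 0 and the snoRNA or scaRNA entry at 0 in 87 of 150 values, both were above 0 in 59 and both at 0 in 4. The short entry was above 0 with its host at 0 in 0 values. The 24 host entries were above 0 in 140 of 144 values. The median of their differences between domains was -0.02 in log2, below the 0.43 of all genes tested. Of the 24, 11 had the higher posterior mean, where 64.9% of all genes did. In limma 0 had an unadjusted p under 0.05, where 7.24% of all genes had it with higher posterior and 0.788% with higher anterior levels. The fitted difference of the short entry was above that of its host in 23 of 25 pairs. However, 17 of the paired short entries were at 0 in every anterior library, and their difference can only be above 0. Beside host differences with a median of -0.02, the outcome was largely set in advance for them. The count of 23 therefore describes the entries and supports nothing further.

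The pairs with protein-coding hosts show most plainly that hosts were above 0 where their short entries were at 0. Rps12, the host of Snora33, had levels of 8.92, 9.23 and 8.22 in the anterior pieces and 9.41, 8.79 and 9.72 in the posterior pieces. Snx5, a sorting nexin gene that hosts Snord17, was at 6.72, 6.69 and 3.47 against 6.26, 6.98 and 6.46. Over the 114 values with such hosts, the median host level was 8.02 in the 75 where the short entry was at 0 and 8.74 in the 39 where it was above 0. Where both were above 0, the short entry was the higher one in 20 of 39.

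For Snhg hosts the host was above 0 and the short entry at 0 in 12 of 36 values, both were above 0 in 20, and both at 0 in 4. The joined entry Snhg7Snora43, which holds the host of Snora17, was at 5.50, 7.88 and 0 in the anterior pieces and 7.41, 6.73 and 9.08 in the posterior pieces, so the host was above 0 in anterior A and B, where Snora17 was listed at 0. Both were highest in posterior C. Snora78 was at 0 in anterior A and B with Snhg9 at 6.61 and 6.60. Scarna13 and its host Snhg10 were both higher in the posterior piece of embryo A, while in embryo B Scarna13 was higher in the posterior and Snhg10 in the anterior piece. Mir1949Snhg4, around Snora74a, was at 7.96, 8.80 and 8.83 against 9.12, 8.57 and 3.77, while Snora74a stayed at 9.43 in posterior C. For Snord64, the entry for Snhg14 (C230091D08Rik) was at 2.10, 2.35 and 4.75 against 0.94, 1.51 and 1.73.

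**Figure D3:**
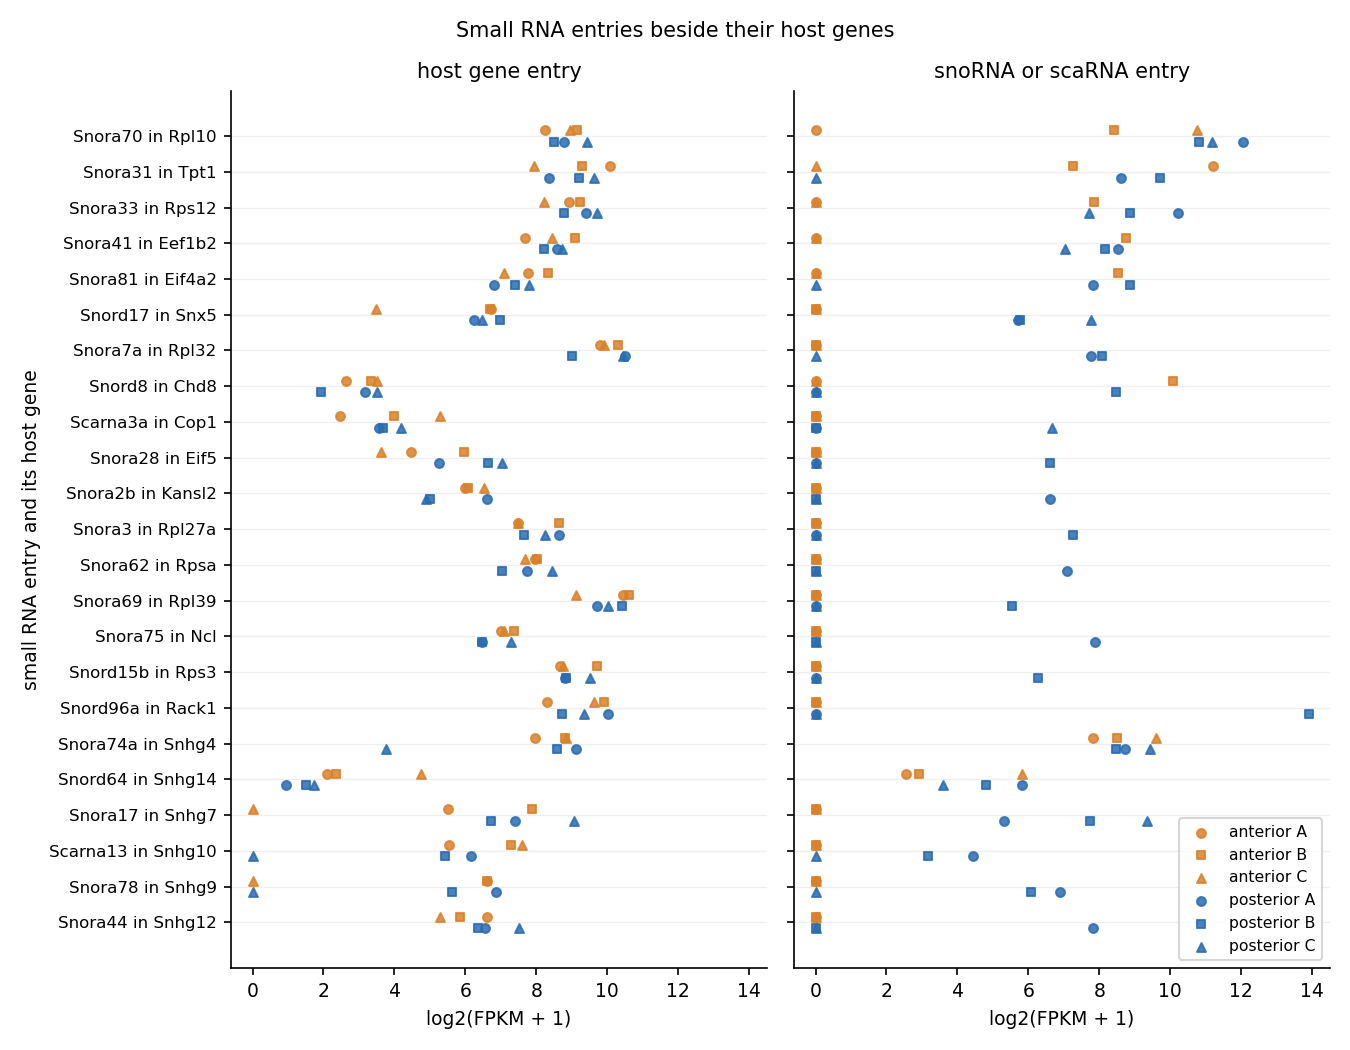
Level in log2(FPKM + 1) of the host gene entry (left) and of the snoRNA or scaRNA entry (right) for 23 pairs, no 2 of which share a host entry, 1 point per library: anterior orange, posterior blue, embryo A circles, B squares and C triangles. Hosts sit above 0 in 134 of 138 values, while many short entries sit at 0, and no short entry is above 0 in a library where its host is at 0.

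Other host transcripts of the class were read from joined entries. Gas5, a well-studied snoRNA host that encodes many C/D RNAs, appears as Gas5Mir5117, at 5.68, 6.47 and 5.48 in the anterior pieces and 6.04, 6.74 and 5.26 in the posterior pieces, and its domains overlapped. Snhg1Snord22 was at 7.22, 8.66 and 9.07 against 9.88, 9.99 and 9.77, with all posterior above all anterior libraries, as for 12.3% of all genes. Its difference was 1.56 ± 0.61 (SE), with limma's unadjusted p at 0.0288 and adjusted p at 0.603. Snhg12Snord99, around Snora44, was at 6.60, 5.85 and 5.29 against 6.56, 6.37 and 7.52.

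The values of many snoRNA entries moved in a few equal steps. After multiplication by relative depth, the FPKM values of an entry were compared with the smallest whole numbers, up to 20, that matched their ratios within 0.5%. Such numbers were found for 10 of the 15 snoRNA and scaRNA entries above 0 in at least 2 libraries (66.7%), for 1 of 7 Snhg entries, for 11 of 27 microRNA genes (40.7%) and for 6.19% of all other entries. Among entries above 0 in 2 or 3 libraries the match was found for 7 of 8, against 37.0% of other entries, and among those above 0 in 4 to 6 libraries for 3 of 7, against 1.84%. A step may be 1 fragment, a part of one or several, so the number of fragments behind these values is not known.

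Read in steps, Snora17 stood at 1, 7 and 12 in the posterior pieces, and Snord17 at 3, 4 and 9. Snora33 stood at 1 step in anterior B and 8, 4 and 1 in the posterior pieces. Snora41 had 3 steps in anterior B and 4, 4 and 1 in the posterior pieces. Snora31 had 11 and 1 in anterior A and B and 4 and 11 in the posterior pieces of A and B. Snord35b, for all its high level, stood at 1 step in each of posterior A and B, Scarna13 at 2 and 1, Snora7a at 5 and 8 and Snora78 at 7 and 5 in those libraries, and Snord8 at 3 in anterior B and 2 in posterior B. The Snhg entry with a match was Snhg9, with 5 and 7 steps in anterior A and B and 13 and 7 in the posterior pieces of A and B.

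A single step is a large value for a short RNA. It was 1398 FPKM for Snord35b, 71.7 FPKM for Snora41 and 30.1 FPKM for Snora17 at the depth of posterior B. At the depth of anterior A it corresponds to a log2 level of 11.95 for Snord35b, 7.67 for Snora41 and 6.43 for Snora17, so levels below these could only be listed at 0 there if a step is the least that can be counted. Posterior values were scaled to the depth of the anterior library of the same embryo. Those of Snora17 came to 0.46, 3.49 and 10.98 steps, and those of Snord17 to 1.37, 2.0 and 8.24. The values of embryo B, 3.49 and 2.0, rest on depths that the direct comparison of its libraries did not match. The same holds for the embryo B values in the counts that follow. Among the matched snoRNA and scaRNA entries, 18 values were above 0 in a posterior piece and at 0 in the anterior piece of that embryo. Of these, 7 came to under 1 step at the anterior depth and 11 to at least 1.

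**Figure D4:**
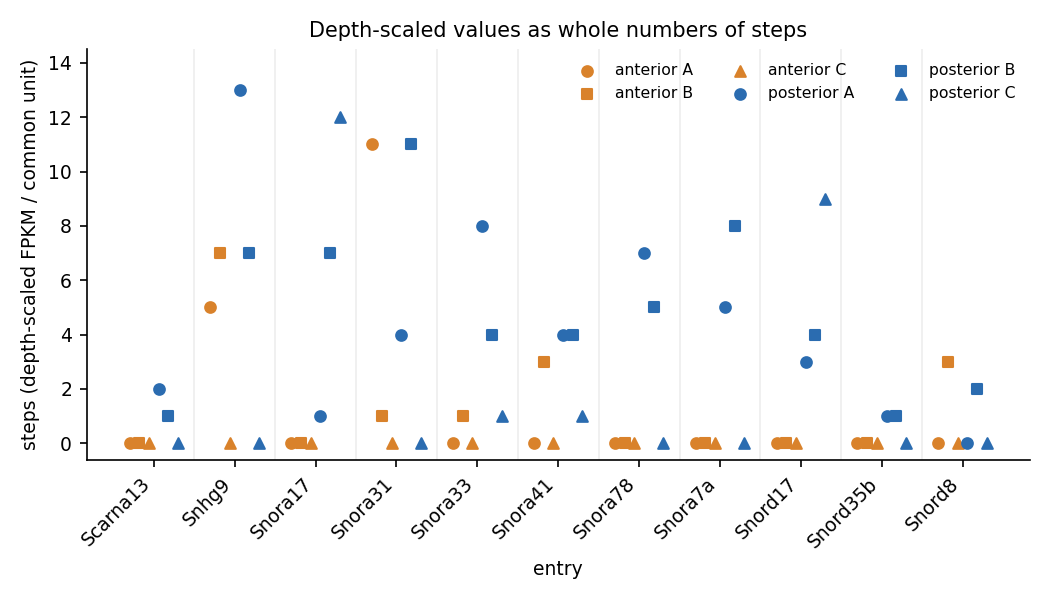
Depth-scaled value of each matched entry as a whole number of steps (vertical axis), 1 point per library: anterior orange, posterior blue, embryo A circles, B squares and C triangles. Values run from 0 to 13 steps, Snora17 reaches 12 in posterior C, and Snord35b stands at 1 in the posterior pieces of A and B.

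The lowest value an entry took above 0 was set beside its length. RefSeq lengths ran from 105 to 198 bases for Snora (median 122), from 46 to 221 for Snord (median 91.5) and from 435 to 10762 for the gene spans of Snhg (median 1754). Scaled to the depth of posterior B, the lowest value was 15560 FPKM for Snord96a (77 bases), 1398 for Snord35b (87 bases), 471.5 for Snord35a (89 bases), 357 for Snord8 (99 bases), 116 for Snora33 (105 bases) and 8.05 for Scarna13 (275 bases). Snora2b and Snora31, both of 112 bases, had the same lowest value of 75.7 FPKM, and Snora70 and Snora7a, both of 129 bases, the same of 169.6 FPKM. The fall with length was not even, with 30.1 for Snora17 (132 bases) and 173.8 for Snora81 (164 bases). Nor is a lowest value always 1 step: the 169.6 of Snora7a was 5 steps and the 357 of Snord8 was 2. Snord64 and Snord89 stood apart, at 1.72 and 0.0783 FPKM. Of the 26 short entries, 3 had a lowest value under 10 FPKM, and the lowest of the others was 30.1. The same held for 12 of 44 microRNA genes, so a low value was not particular to those entries.

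**Figure D5:**
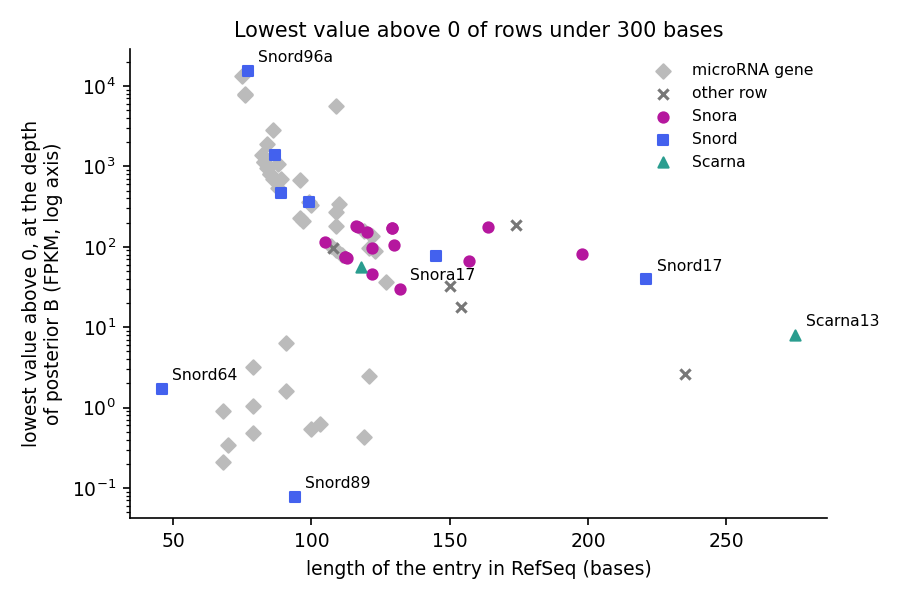
Lowest value above 0, scaled to the depth of posterior B, in FPKM on a log axis, against RefSeq length in bases, 1 point per entry shorter than 300 bases: Snora circles, Snord squares, Scarna triangles, microRNA genes grey diamonds and other entries crosses. The value is 15560 FPKM for Snord96a and 8.05 for Scarna13, the longest, with no even drop between them. Snora17 (132 bases) is at 30.1 and Snora81 (164 bases) at 173.8. Snord64, Snord89 and 12 of the 44 microRNA genes lie under 10 FPKM at lengths of 46 to 121 bases.

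Differences among embryos were tested in the same fit. In limma's F test for embryo, 0 members passed an adjusted p of 0.05, as did 0% of all genes, and 5 members had an unadjusted p under 0.05, against 2.77% of all genes. Snora31 and Snord8 had the smallest, at 1.72e-05 and 1.87e-05, each with an adjusted p of 0.102 in limma. Their adjusted p in limma was 0.0151 and 0.0184 with no filter on low genes, 0.0166 for both after quantile normalization, 0.0434 for both with library medians set equal, and up to 0.463 and 0.526 under the other settings. Without embryo A the adjusted p in limma was 0.0197 for Snord8 and 0.0332 for Snora81. The remaining ones were Snhg9 (limma unadjusted p 1.12e-04), Snora81 (0.00216) and Snora41 (0.0456). Snord8 was above 0 in both libraries of embryo B alone, and Snora31 and Snhg9 were at 0 in both libraries of embryo C alone.

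The proteins that snoRNAs work with were measured in nearly every library. The 8 core proteins of the snoRNA particles with an entry, among them the methyltransferase Fbl and the pseudouridine synthase Dkc1, were above 0 in 48 of 48 values. Of these, 7 of 8 had the higher posterior mean (median difference 0.73 in log2), beside 64.9% of all genes and their median of 0.43, and 0 passed an adjusted p of 0.05 in limma. Nop10, an H/ACA core protein, was at 5.91, 6.87 and 6.44 in the anterior pieces and 8.82, 8.63 and 7.49 in the posterior pieces, with a difference of 1.91 ± 0.65 (SE). Dkc1 was at 3.16, 5.12 and 5.19 against 6.34, 6.12 and 6.62, with a difference of 1.87 ± 0.77 (SE). For both, all posterior lay above all anterior libraries, as they did for 12.3% of all genes. Their adjusted p in limma was 0.566 and 0.614. Fbl was at 4.15, 5.09 and 3.78 against 5.52, 4.70 and 5.22, and its domains overlapped.

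Of 18 assembly and nucleolar factors, 12 had the higher posterior mean (median difference 0.28 in log2), a share near that of all genes, with 0 past the adjusted threshold in limma. Znhit3, a factor of C/D particle assembly, was at 3.15, 4.48 and 0 in the anterior pieces and 6.76, 7.66 and 6.40 in the posterior pieces, a difference of 4.40 ± 0.89 (SE) with limma's adjusted p at 0.520. Coil, the scaffold of Cajal bodies, differed by 1.83 ± 0.98 (SE). Nucleolin (Ncl) and nucleophosmin (Npm1), abundant nucleolar proteins, differed by -0.41 ± 0.64 and 0.03 ± 0.55 (SE). Of 37 host genes outside the Snhg class, 27 had the higher posterior mean (median difference 0.16 in log2, below that of all genes), with 0 past the adjusted threshold. The leading ones were the imprinted non-coding hosts Meg3 (6.23 ± 1.02, SE, limma adjusted p 0.282) and Rian (3.98 ± 0.96, SE, limma adjusted p 0.520). Among the other hosts named here, Tpt1, Eef1b2, Rpl10 and Rps3 differed by -0.04 ± 0.71, 0.11 ± 0.61, 0.13 ± 0.58 and 0.00 ± 0.59 (SE). Snx5, Rps12, Gnb2l1 (Rack1) and Eif4a2 differed by 0.94 ± 0.82, 0.52 ± 0.60, 0.10 ± 0.67 and -0.39 ± 0.65 (SE).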

How the data were processed

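RNA was measured in 6 libraries, 3 anterior and 3 posterior. Per the labels' protocols, reads were placed on the Ensembl 38.77 mouse genome and counted by HTSeq-count, while TopHat2 2.0.4, Cufflinks 2.0.2 and build mm10 stand in the submitters' processing notes. No source used here says which of these gave the values. The authors deposited log2 values, read from their digits as log2(FPKM + 1), which entered the fit as they are. The 10914 genes whose mean over libraries reached 1 FPKM were tested two-sided in limma 3.58.1 (R 4.3.3), with a mean-variance trend, embryo as block, and Benjamini-Hochberg adjustment over all genes. The block rests on the dissection, since both pieces come from the same structure; deviations of paired pieces correlated at -0.07, 0.04 and -0.03 in embryos A, B and C. The fit was tested on simulated data with normal noise of capped spread. These hold no entries listed at 0 throughout a domain, so that test says nothing about such entries. For each entry, limma combined its own spread between pieces (2 residual degrees of freedom) with the spread of genes of like level (7.5 prior degrees of freedom). P-values therefore rest only in part on the spread between pieces of the 3 structures. Names, lengths and hosts came from RefSeq (GRCm38.p6) and GENCODE M21, which matched all 33 members, and sequence from mouse chromosome 18 and 1 host gene are not reported here. The members and lists were chosen with earlier results of these data known. Entries named are, per class, those with the smallest p-values or highest means, those at 0 in one domain only, host pairs, and the leading genes of each list; the rest were chosen after their values were seen. Alternatives were other pseudocounts, filters, scalings, no block, and leaving out embryos or libraries.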

Additional observations from a re-analysis of the deposited data

How the results depend on the processing

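The count of members past limma's adjusted p of 0.05 between domains was 0 in the blocked fit and in every alternative but one. Leaving out single embryos or libraries gave 0 to 1, the 1 being Snord35b (difference 10.63, limma adjusted p 0.0215) with no replicate block and without posterior C. With no replicate block the count was 0 and the count at an unadjusted p stayed at 9, so the block changed no call. That count was 8 to 10 under other pseudocounts, filters and scalings and 3 to 10 when an embryo or library was left out. In the anterior direction it was 0 as fitted, 1 with no filter, and 2 with quantile normalization or with library medians set equal. Among embryos, 2 members (Snora31 and Snord8) passed with no filter, with quantile normalization and with medians set equal, and Snora81 and Snord8 without embryo A, against 0 as fitted; the cause was not tested. Of the 33 members, 25 kept their direction in every fit that gave one. Directions turned with quantile normalization for Snhg8 (-0.28), Snora74a (-0.10) and Gas5Mir5117 (-0.18), and with medians set equal for Snhg5 (-0.02), Snhg8 (-0.48), Snora74a (-0.25) and Gas5Mir5117 (-0.35). Snhg8 also turned with 0.1 FPKM added (-0.02). Leaving out 1 embryo gave -0.35 to 0.71 for Snhg8, -0.49 to 0.12 for Snhg9, -1.30 to 1.22 for Snora31, -0.09 to 0.44 for Snora74a, -0.18 to 2.58 for Snord64 and -0.08 to 3.71 for Snord89. With no replicate block and a single library left out, the turned differences were -0.11, -0.16, -0.22 and -0.63 for Snhg8, 0.85 (without anterior A and without anterior B) and 1.83 for Snhg9, 0.50, 2.48 and 3.00 for Snora31, -0.03 and -0.17 for Snora74a, 0.89 (without posterior A and without posterior C) and 2.83 for Snord8, and -0.06 and -0.23 for Gas5Mir5117. The median of all genes moved from 0.43 to -0.06 with quantile normalization. When only libraries of near-equal depth were kept, short entries above 0 per posterior library fell from a mean of 15.7 to 8.0. That 8.0 is posterior C alone, and the anterior mean went from 5.7 to 6.5. The choice was made after seeing the data and rests on the depths used. Values with the host above 0 and the short entry at 0 numbered 12 of 36 for Snhg hosts and 75 of 114 for other hosts. Over all pairs they numbered 87 of 150, so the share differed by class of host. In 14 entries some fits had no value above 0 left and give no direction. By the depths used, 7 of 18 posterior values of matched short entries lay under 1 step at the depth of the anterior piece. Such levels could not be seen there if a step is the least that can be counted. For embryo B those depths are uncertain.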
